A study of Rattus norvegicus with 10 samples.

Results

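Of the 23487 genes in the count table, 10 belong to the core of the microRNA pathway and are described here: the Argonautes Ago1, Ago2, Ago3 and Ago4, the nucleases Drosha and Dicer1, the Drosha partner Dgcr8, the export receptor Xpo5, and the silencing adaptors Tnrc6a and Tnrc6b. They were chosen by exact gene symbol. Each symbol stood on 1 Ensembl gene, and all 10 passed the filter on low counts in all 5 comparisons. RNA was sequenced from primary cells of the oligodendrocyte lineage, which makes the myelin of the brain, cultured from the cortices of newborn Sprague-Dawley rats. There were 10 libraries in 5 groups of 2. The labels give transfected mimics and inhibitors at 30 nM, and so do the study's results for miR-145, whereas its sequencing methods name a lentivirus for miR-145 and its scrambled control; the labels were followed. Differentiating oligodendrocytes (OLs), collected 5 days after transfection, received a scrambled mimic (miR-ctl), a miR-145-5p mimic (miR-145), or the mimics of miR-145-5p and miR-219 together (miR-145+miR-219). Oligodendrocyte precursor cells (OPCs), collected at 24 h, received a scrambled inhibitor (anti-miR-ctl) or an inhibitor of miR-145-5p (anti-miR-145). The treatment field of both OL miR-145 libraries also names miR-219, while their titles name miR-145 alone; the titles were followed, so the contrast of the mimics rests on the titles. The labels do not say whether replicates were separate cultures. The study's reporting statement takes each N as a biological replicate, for primary cultures the cells of a single animal, which it calls a mouse although these cells are from rats, so the p-values are read only as the spread between these samples.

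A microRNA is made in steps. In the nucleus Drosha, held by Dgcr8, cuts a hairpin out of the primary transcript, Xpo5 carries the hairpin to the cytoplasm, and Dicer1 cuts off its loop. An Argonaute then keeps a single strand as a guide and finds mRNAs that pair with the guide's seed. Tnrc6 proteins bind the Argonaute and bring in the enzymes that remove the poly(A) tail. Ago2 is the Argonaute known as a slicer of fully paired targets, and loss of Dicer1 in the oligodendrocyte lineage is known to impair myelination. A transfected mimic enters at the Argonaute step, and an inhibitor binds the loaded guide, so neither needs Drosha or Dicer1, whereas a microRNA expressed from a virus would pass through the earlier steps.

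The RNAs that the mimics copy are shown to make clear what was put into the pathway. The mature rat sequences from RefSeq (GRCr8) are printed 5′ to 3′, with the seed, bases 2 to 8, in capitals. The 2 seeds differ.
rno-miR-145-5p: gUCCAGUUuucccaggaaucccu
rno-miR-219a-5p: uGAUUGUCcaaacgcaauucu

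The libraries held 33505706 to 42684206 estimated counts. Levels are given as CPM, the count of a gene scaled to a fixed library total, after TMM correction for library composition. CPM depends on transcript length, so levels are compared between groups and never between genes. The estimated counts of Ago1, Ago3 and Tnrc6b were not whole in any library, so they hold reads that Salmon divided between features, and those of the other 7 genes were whole. The counts of Ago1 and Ago3 added up to a whole number, within 0.002, in each of the 10 libraries, so these genes shared reads with each other, and the level of each depends on how Salmon divided them. The stages matched their labels by markers. The summed CPM of 9 genes of maturing oligodendrocytes was 15505 to 34124 in the 6 OL libraries and 1103 to 1318 in the 4 OPC libraries, and that of 5 OPC genes was 1729 to 2397 and 4185 to 5343. Of the 5 OPC genes 4 were lower in every OL library, and Gpr17 went the other way, at 183 to 375 CPM in OLs and 21.4 to 33.1 in OPCs. Astrocyte markers moved with the stage too. The sum of 6 astrocyte genes was 4974 to 11978 in OLs and 221 to 437 in OPCs, all 6 detected in every library, and 5 of the 6 were higher in every OL library, while Slc1a3 overlapped, at 305 to 867 and 169 to 398. The sums of 9 microglial genes overlapped, at 309 to 876 and 814 to 1003, and in the controls Aif1 was at 21.3 and 30.9 CPM in OLs and 204 and 219 in OPCs while C1qa was at 100.2 and 146 against 85.6 and 80.7. In bulk RNA, fewer cells of a type and less RNA per cell cannot be told apart.

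The question of the first comparison was how the 10 genes differ between OLs and OPCs that received control oligonucleotides. The OLs had more Ago3 and Dicer1 mRNA and less Dgcr8 mRNA than the OPCs, and the other 7 genes were not called. The Ago3 call holds for the counts as Salmon divided them between Ago3 and Ago1. The sum of both genes was not called, but it also holds the Ago1 counts, so it cannot test the Ago3 call. This contrast also differs in the kind of control oligonucleotide and in the time after transfection, and these cannot be told apart from the stage. The test was edgeR's quasi-likelihood test over 15721 genes, and a gene was called where its p, adjusted by Benjamini-Hochberg, was under 0.05. The test called 57.5% of all genes, 28.8% higher and 28.7% lower in OLs, and 3 of the 10 members. Without adjustment 4 members had a p under 0.05, as did 62.9% of all genes, and the 2 groups of libraries did not overlap for 6 members and for 81.8% of all genes. The median log2 difference was −0.08 over the members and 0.01 over all genes.

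**Figure D1:**
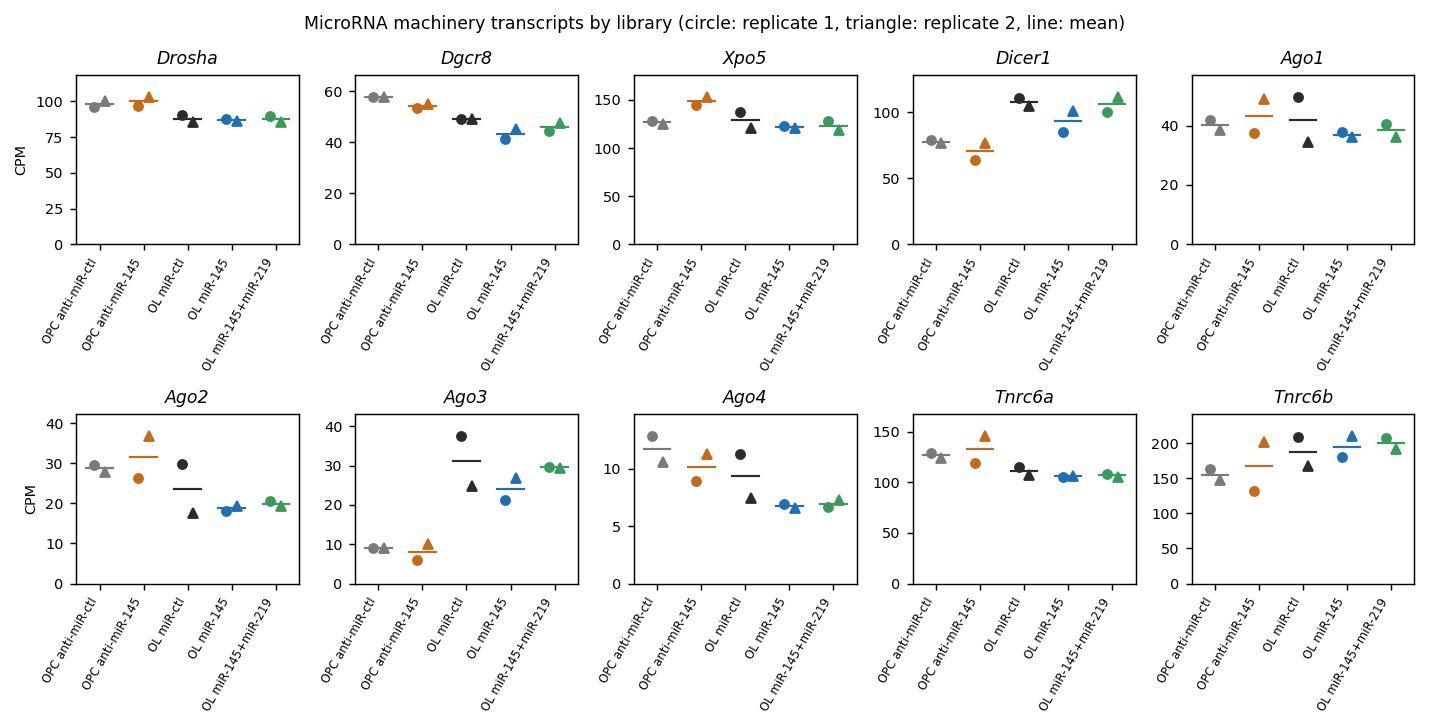
Level of each of the 10 genes in every library (CPM on a linear axis from 0, a panel per gene), with a point per library and a line at the mean of the 2 libraries of each group. Ago3 sits between 21.2 and 37.6 CPM in the OL libraries and between 5.98 and 10.0 in the OPC libraries, whereas the ranges of the stages overlap for Ago1, Ago2, Ago4, Xpo5 and Tnrc6b.

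Ago3 had the widest range over the groups. Its level was 37.6 and 24.9 CPM in the 2 OL miR-ctl libraries, 21.2 and 26.8 in OL miR-145, 29.8 and 29.5 in OL miR-145+miR-219, 9.002 and 8.976 in OPC anti-miR-ctl, and 5.98 and 10.0 in OPC anti-miR-145. Every OL library was above every OPC library. In the controls the mean was 31.2 ± 8.95 CPM in OLs and 8.99 ± 0.02 in OPCs (SD, n = 2 each), a 3.44-fold difference (log2 1.78, SE 0.21, 95% interval 1.24 to 2.33; edgeR adjusted p = 0.00168). The comparison was repeated, in a choice made after the values were seen, on libraries it had not used. OL miR-145 was then above OPC anti-miR-145 by 1.59 (SE 0.27; edgeR adjusted p = 0.00425), and OL miR-145+miR-219 by 1.90 (SE 0.24; edgeR adjusted p = 8.61e-04), and these 2 repeats share the OPC libraries. They also differ by treatment as well as by stage.

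The sum of Ago1 and Ago3 does not depend on the division of their reads. In the controls this sum was 87.3 and 59.2 CPM in OLs and 50.8 and 47.6 in OPCs, and over all groups it was 59.02 to 87.3 in OLs and 43.4 to 58.87 in OPCs, so the stages were barely apart. Fitted as a single feature, in a choice made after the values were seen, the sum was 1.48-fold higher in the control OLs (log2 0.56, SE 0.19, 95% interval 0.08 to 1.04) and was not called (edgeR adjusted p = 0.0514). The sum also holds Ago1, at 42.0 CPM in the control OLs and 40.2 in the control OPCs as divided. A smaller fold for the sum is therefore no test of the Ago3 call. How far the Ago3 difference reflects the division of shared reads was not tested.

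Astrocyte markers stood higher in the OL libraries with Ago3. Within the OLs, the astrocyte sum was 5815 and 4974 CPM in OL miR-ctl, where Ago3 was at 37.6 and 24.9. It was 11978 and 8256 in OL miR-145, with Ago3 at 21.2 and 26.8, and 9899 and 5919 in OL miR-145+miR-219, with Ago3 at 29.8 and 29.5. The library with the highest sum had the lowest Ago3 level, and within the OL miR-ctl pair and the OL miR-145+miR-219 pair the library with the higher sum had the higher Ago3 level. The part of astrocytes, microglia and other cells in the stage differences was not tested.

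Dicer1, which cuts the hairpin loop, was the other gene that was higher in OLs. It was at 111 and 105 CPM in OL miR-ctl, 85.1 and 101 in OL miR-145, 100 and 112 in OL miR-145+miR-219, 78.7 and 76.6 in OPC anti-miR-ctl, and 64.1 and 76.9 in OPC anti-miR-145. Again no OL library reached down to an OPC library. The control means were 108 ± 4.48 and 77.7 ± 1.53 CPM (SD, n = 2 each), a 1.38-fold difference (log2 0.46, SE 0.07, 95% interval 0.27 to 0.65; edgeR adjusted p = 0.00461). It was 0.61 (edgeR adjusted p = 0.0110) for OL miR-145+miR-219 against OPC anti-miR-145, and for OL miR-145 it was 0.41 and missed the threshold (edgeR adjusted p = 0.0610). Leaving out either OPC control library also lost the Dicer1 call, though its difference was 0.46 without replicate 1 and 0.42 without replicate 2. In the same fits Ago3 differed by 1.77 and 1.76. Each fit leaves 1 OPC control library, so the spread between OPC libraries is not measured there.

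The nuclear genes lay the other way. Dgcr8 was at 49.1 and 49.0 CPM in OL miR-ctl, 41.3 and 45.1 in OL miR-145, 44.6 and 47.4 in OL miR-145+miR-219, 57.8 and 57.9 in OPC anti-miR-ctl, and 53.4 and 54.9 in OPC anti-miR-145. All OL libraries were below all OPC libraries. The control difference was −0.25 on the log2 scale (SE 0.07, 95% interval −0.44 to −0.06; edgeR adjusted p = 0.0343), and this call did not hold with DESeq2 (adjusted p = 0.0593), without either OPC control library, or in either repeat on other libraries (edgeR adjusted p = 0.0588 and 0.176). Drosha, the nuclease that Dgcr8 positions, was at 85.6 to 90.3 CPM in the OL libraries and 95.9 to 103 in the OPC libraries. Its control difference of −0.17 (SE 0.08, 95% interval −0.36 to 0.02) was not called (edgeR adjusted p = 0.108). Xpo5, the exporter, was at 129 ± 11.7 and 127 ± 2.34 CPM in the controls (SD, n = 2 each), a log2 difference of 0.01 with a 95% interval of −0.22 to 0.24.

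Tnrc6a and Tnrc6b, which link Argonautes to the deadenylases, lay on opposite sides of 0. Tnrc6a was at 105 to 115 CPM in the OL libraries and 119 to 146 in the OPC libraries, without overlap, with a control difference of −0.20 (SE 0.08, 95% interval −0.40 to −0.01; edgeR adjusted p = 0.0731). Tnrc6b was at 168 to 210.2 CPM in OLs and 132 to 201 in OPCs, and its control difference was 0.26 (SE 0.13, 95% interval −0.06 to 0.59; edgeR adjusted p = 0.131). Without OL miR-ctl replicate 1 Tnrc6b differed by 0.11, and without replicate 2 by 0.42. Each of these fits leaves 1 control OL library, so the spread between OL libraries is not measured there. In all, 5 of the 10 genes had every OL library beyond every OPC library, Ago3 and Dicer1 above and Drosha, Dgcr8 and Tnrc6a below. Among all 16339 genes with enough counts the share was 50.6%, so the members were not set apart by that count.

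Ago2 was lower in OLs in some fits and not in others, and its control difference changed with a single library. It was at 29.9 and 17.6 CPM in OL miR-ctl, 18.1 and 19.5 in OL miR-145, 20.5 and 19.2 in OL miR-145+miR-219, 29.5 and 27.9 in OPC anti-miR-ctl, and 26.3 and 36.8 in OPC anti-miR-145. The first OL miR-ctl library was as high as the OPC controls, and the other 5 OL libraries were below all 4 OPC libraries. The control difference was −0.29 (SE 0.25, 95% interval −0.92 to 0.35; edgeR adjusted p = 0.370) with that library and −0.71 without it. The fit without it leaves 1 control OL library, so the spread between OL libraries is not measured there. On the other libraries Ago2 was lower by 0.75 (SE 0.19; edgeR adjusted p = 0.0193) in OL miR-145 than in OPC anti-miR-145, and by 0.65 (SE 0.18; edgeR adjusted p = 0.0245) in OL miR-145+miR-219. In those repeats 48.3% and 48.8% of all genes were called, and 2 and 3 of the members. Ago1 and Ago4 were not called, at 0.05 (95% interval −0.42 to 0.52) and −0.34 (95% interval −0.92 to 0.25) in the controls. They too rested on the OL miR-ctl libraries. Ago1 fell on either side of 0, at −0.23 without replicate 1 and 0.30 without replicate 2. Ago4 was at −0.66 without replicate 1 and −0.07 without replicate 2. Drosha and Tnrc6a were at −0.20 and −0.24 without replicate 1.

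Replicate 1 of OL miR-ctl was the higher of its pair for all 4 Argonautes. It exceeded replicate 2 by 0.53 for Ago1, 0.76 for Ago2, 0.59 for Ago3 and 0.59 for Ago4 on the log2 scale, while the median absolute difference over all genes was 0.20 and 21.6% of genes differed by more than 0.5. For the 6 other members the pair differed by 0.00 to 0.31. In OPC anti-miR-145 replicate 2 was the higher for the Argonautes, by 0.34 for Ago4 up to 0.74 for Ago3, and by 0.60 for Tnrc6b. Every Argonaute difference that uses these libraries carries that spread.

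Each Argonaute was then expressed as a share of the counts of Ago1 to Ago4, which does not depend on the scaling of a library. The Ago3 share was 25.3% to 32.0% in the 6 OL libraries (median 29.8%) and 7.60% to 10.4% in the 4 OPC libraries (median 9.52%), so OLs carried more of their Argonaute counts on Ago3 in every library. The Ago2 share was 20.9% to 23.2% in OLs and 31.7% to 34.4% in OPCs. Ago4 made up 6.81% to 8.84% and 10.6% to 13.8%. The Ago1 share was 38.7% to 44.9% and 44.8% to 47.6%, and these overlapped. The high OL miR-ctl library, with Argonaute counts at 128 CPM in sum against 84.3 in its replicate, had an Ago3 share of 29.3% against 29.5%, and an Ago2 share of 23.2% against 20.9%. Shares are bound to sum to a whole, so a second view set each gene against Ago1. The shares of Ago1 and Ago3, and every ratio to Ago1, depend on how Salmon divided the reads of these genes. Per 100 Ago1 counts there were 47.9 to 60.002 Ago2 counts in OLs and 70.3 to 75.4 in OPCs, 56.3 to 81.5 and 15.98 to 23.2 for Ago3, and 16.3 to 22.6 and 23.2 to 30.8 for Ago4, without overlap for any of the 3. These values are a description with no test. A longer transcript gives more counts, so each share is compared over libraries and not between genes.

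**Figure D2:**
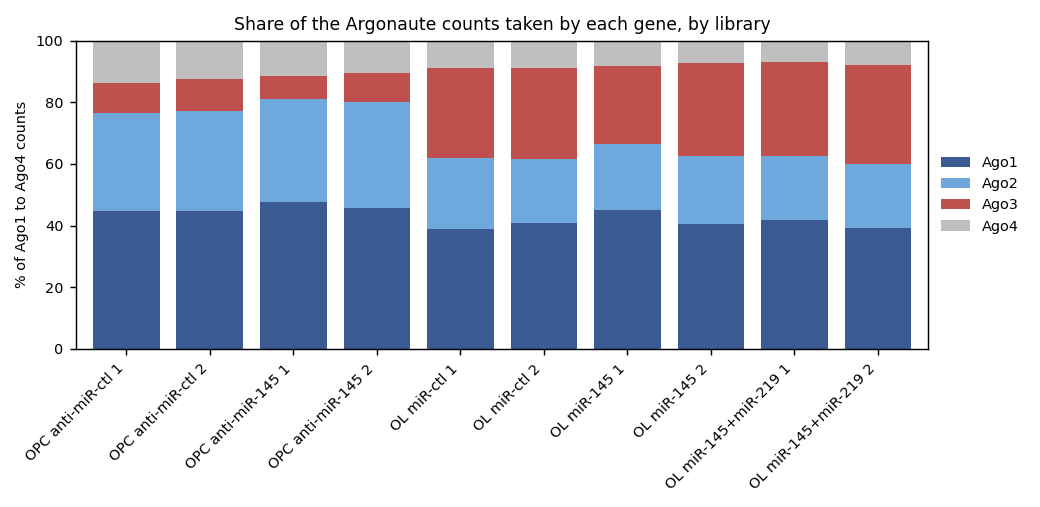
Share of the Ago1 to Ago4 estimated counts (percent, y axis) held by each Argonaute in each of the 10 libraries (x axis, by group and replicate). The Ago3 share is 25.3% to 32.0% in the 6 OL libraries and 7.60% to 10.4% in the 4 OPC libraries, and the Ago2 share is 20.9% to 23.2% and 31.7% to 34.4%.

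Ago3, Ago1 and Ago4 are direct protein-coding neighbours on rat chromosome 5, in the order Ago3, Ago1, Ago4 between Tekt2 and Clspn, while Ago2 lies on chromosome 7. Their log2 differences between the control OLs and OPCs were 1.78, 0.05 and −0.34, in that order, and their promoter windows are shown to set these neighbours side by side, from 250 bases before to 50 bases after the RefSeq start, on the minus strand and printed 5′ to 3′. Capitals mark the GC box (GGGCGG, or CCGCCC on the other strand) and the CCAAT box (CCAAT or ATTGG).
Ago3, GRCr8 chr5:143998688-143998987: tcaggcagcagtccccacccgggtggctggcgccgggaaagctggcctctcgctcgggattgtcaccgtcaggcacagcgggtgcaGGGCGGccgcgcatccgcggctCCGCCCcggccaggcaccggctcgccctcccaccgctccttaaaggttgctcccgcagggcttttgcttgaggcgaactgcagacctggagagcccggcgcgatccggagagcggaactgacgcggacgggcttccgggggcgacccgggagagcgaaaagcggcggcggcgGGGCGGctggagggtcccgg
Ago1, GRCr8 chr5:144041575-144041874: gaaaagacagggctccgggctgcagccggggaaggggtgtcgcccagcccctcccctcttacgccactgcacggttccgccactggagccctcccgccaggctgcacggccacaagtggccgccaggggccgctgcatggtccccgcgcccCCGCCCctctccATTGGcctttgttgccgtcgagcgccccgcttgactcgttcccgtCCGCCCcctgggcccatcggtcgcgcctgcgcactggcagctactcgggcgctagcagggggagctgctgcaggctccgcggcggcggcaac
Ago4, GRCr8 chr5:144110353-144110652: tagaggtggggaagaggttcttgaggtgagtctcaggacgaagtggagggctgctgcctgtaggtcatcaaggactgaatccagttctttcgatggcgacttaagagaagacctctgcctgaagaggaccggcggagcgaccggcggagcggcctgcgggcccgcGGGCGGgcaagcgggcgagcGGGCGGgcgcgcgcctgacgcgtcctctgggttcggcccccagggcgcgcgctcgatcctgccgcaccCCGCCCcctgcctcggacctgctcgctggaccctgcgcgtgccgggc

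The Ago3 and Ago4 windows each held 3 GC boxes, and the Ago1 window held 2 with 1 CCAAT box. Promoters were found in the table for 8 of the 10 members, and Ago2 and Tnrc6b were not among them. Of the 8, 5 held a GC box, 4 a CCAAT box and none TATAAA or its reverse, against 33.1%, 37.5% and 14.2% of all 33469 windows of that length. The 3 windows printed hold 30 to 37 CG pairs, against a median of 7 over all windows. A match says only that these letters occur in the window.

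The mimic comparison asked whether excess miR-145 changed the genes of the pathway in OLs. None of the 10 was called between OL miR-145 and OL miR-ctl, where edgeR called 0 of 15461 genes (0% of them; smallest adjusted p = 0.158). Without adjustment 2067 genes, or 13.4%, had a p under 0.05 and no member did, and DESeq2 called 649 genes and no member. With the replicate number as a block, edgeR called more genes and again no member. Of the 10 members, 9 were lower with the mimic, as were 7973 of all 15461 genes. The median log2 difference was −0.18 over the members and −0.01 over all genes. Without OL miR-ctl replicate 1, Ago1, Ago2, Drosha and Xpo5 were above 0, at 0.11, 0.10, 0.03 and 0.03. Ago3, Ago4, Dicer1, Dgcr8 and Tnrc6a stayed below 0 in that fit. The libraries of the groups did not overlap for 4 members, Ago4, Dicer1, Dgcr8 and Tnrc6a, all lower with the mimic, and for 47.3% of all genes.

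Ago2, Ago3 and Ago4 had the lowest values, and the 4 Argonautes the widest intervals. The log2 differences were −0.18 for Ago1 (95% interval −0.67 to 0.30), −0.33 for Ago2 (−0.99 to 0.33), −0.37 for Ago3 (−0.96 to 0.22) and −0.47 for Ago4 (−1.09 to 0.16). They rest on the high OL miR-ctl library. Without it the values were 0.11 for Ago1 and 0.10 for Ago2, with the sign turned, −0.04 for Ago3 and −0.13 for Ago4. The genes of the earlier steps were more tightly bounded. Drosha was at 87.1 ± 0.97 CPM with the mimic and 88.0 ± 3.36 in the control (SD, n = 2 each), with a 95% interval of −0.27 to 0.25 on the log2 scale. Dicer1 was at 93.2 ± 11.4 and 108 ± 4.48 CPM, a difference of −0.20 (SE 0.13, 95% interval −0.53 to 0.12) that was −0.08 without OL miR-145 replicate 1 and −0.34 without replicate 2. Dgcr8 was lower by 0.18 (95% interval −0.46 to 0.10), Xpo5 by 0.07 (−0.36 to 0.22) and Tnrc6a by 0.06 (−0.32 to 0.20), and Tnrc6b was higher by 0.06 (−0.33 to 0.45). As folds, the interval ran from 0.83 to 1.19 for Drosha and from 0.50 to 1.25 for Ago2, so the data bound a change of Drosha more closely than a change of Ago2.

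With both mimics, OL miR-145+miR-219 against the same OL miR-ctl libraries, no member was called. edgeR called 0 of 15436 genes (0%), with 6.19% at an unadjusted p under 0.05 and no member among them, and DESeq2 called 106 genes and no member. The libraries did not overlap for Ago4 and Dgcr8, both lower with the mimics, and for 36.8% of all genes. Ago4 was at 6.65 and 7.28 CPM with both mimics and 11.2 and 7.45 in the control, a difference of −0.42 (95% interval −1.06 to 0.21). Dicer1 differed by −0.02 (95% interval −0.30 to 0.26) and Drosha by 0.00 (−0.25 to 0.26). Because the 2 mimic comparisons share their controls, the height of OL miR-ctl replicate 1 enters both.

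The direct comparison of the mimics leaves those controls out. OL miR-145+miR-219 against OL miR-145 gave 0 of 15501 genes called by edgeR (0%), 9 by DESeq2 and 1.47% at an unadjusted p under 0.05, with no member in any of these. All 10 differences were above 0, with a median of 0.04, against 7638 of all 15501 genes and a median of −0.003. Those of Ago1, Ago4, Drosha, Xpo5, Tnrc6a and Tnrc6b turned their sign when a library was left out. Ago3 was the member with the greatest difference, at 29.8 and 29.5 CPM with both mimics and 21.2 and 26.8 with miR-145 (log2 0.29, SE 0.15, 95% interval −0.11 to 0.69). It rested on the OL miR-145 libraries, at 0.13 without replicate 1 and 0.48 without replicate 2. It was also the 1 member whose libraries did not overlap, against 24.8% of all genes. For Tnrc6a the difference was 0.00 (95% interval −0.25 to 0.25) and for Xpo5 0.01 (−0.25 to 0.26).

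The inhibitor comparison asked the reverse, whether blocking miR-145 in OPCs changed the pathway. It moved many genes and called no member. Between OPC anti-miR-145 and OPC anti-miR-ctl, edgeR called 4348 of 15496 genes, or 28.1% (12.1% higher and 16% lower), and 0 of the 10 members. DESeq2 called no member either, and 1 member, Xpo5, had an unadjusted p under 0.05, as did 40.9% of all genes. The median absolute log2 difference was 0.12 over the members and 0.27 over all genes.

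Xpo5 was at 144.97 and 153.44 CPM with the inhibitor and 128 and 125 in the control, so both treated libraries were above both controls. The difference was 0.22 (SE 0.08, 95% interval 0.04 to 0.40; unadjusted p = 0.0258 and edgeR adjusted p = 0.0768). The libraries of Dgcr8 were also apart, lower with the inhibitor by 0.11 (95% interval −0.30 to 0.08). These 2 genes compare with 68.6% of all genes whose libraries were apart. Dicer1 was at 70.5 ± 8.99 and 77.7 ± 1.53 CPM (SD, n = 2 each; log2 −0.15, 95% interval −0.39 to 0.08), and Drosha at 100.2 ± 4.42 and 98.1 ± 3.12 (log2 0.02, 95% interval −0.17 to 0.21).

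For Ago1, Ago2, Ago3, Tnrc6a and Tnrc6b the 2 inhibitor libraries fell on both sides of the controls. Tnrc6a was at 119.1 and 145.6 CPM with the inhibitor and 129.2 and 123.9 in the control. Its log2 difference was 0.05 (95% interval −0.20 to 0.30), at 0.18 without inhibitor replicate 1 and −0.08 without replicate 2. Ago4 was at 8.92 and 11.3 CPM with the inhibitor and 12.9 and 10.6 in the control, so its groups overlapped. Ago1 was at 37.5 and 48.8 CPM with the inhibitor and 41.8 and 38.6 in the control, and Ago3 at 5.98 and 10.0 against 9.002 and 8.976. The log2 differences were 0.09 for Ago1 (95% interval −0.22 to 0.39), 0.12 for Ago2 (−0.24 to 0.48), −0.18 for Ago3 (−0.71 to 0.34), −0.23 for Ago4 (−0.59 to 0.13) and 0.09 for Tnrc6b (−0.33 to 0.51). The differences depended on which inhibitor library was left in. Without replicate 1 they were 0.25 for Ago1, 0.33 for Ago2, 0.13 for Ago3, −0.08 for Ago4 and 0.35 for Tnrc6b. Without replicate 2 they were −0.10, −0.12, −0.58, −0.39 and −0.23, in that order. In such fits the lone inhibitor library is assumed to vary like the controls. Dicer1 was at −0.04 and −0.27 in these 2 fits, and Xpo5 stayed above 0, at 0.25 and 0.20. Without control replicate 1 or 2, Xpo5 was at 0.22 and 0.17.

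**Figure D3:**
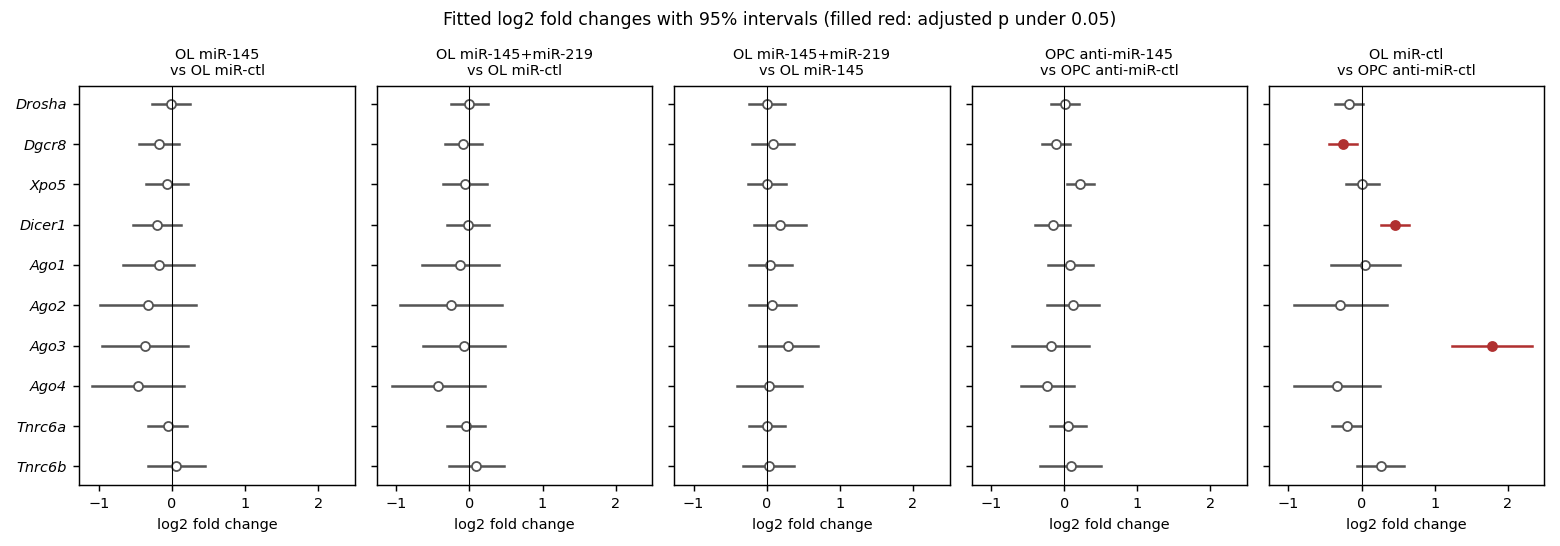
Log2 difference of each of the 10 genes in each of the 5 comparisons (x axis, first group minus second), with the 95% interval from edgeR as a bar and filled points where the adjusted p is under 0.05. The called points are Ago3 at 1.78, Dicer1 at 0.46 and Dgcr8 at −0.25 in the comparison of the control OLs with the control OPCs.

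The other genes of the pathway were taken as a list of 64 partners, of which 55 or 56 were tested in each comparison. They cover partners of Drosha, the genes of export, dicing and precursor turnover, Argonaute loading, and the silencing effectors that shorten and decap the mRNA. Piwil1 and Piwil2, the Argonaute relatives of the germ line, were at or under 1 CPM in every library. Between the control OLs and the control OPCs 32 of 56 partners were called (57.1%, against 57.5% of all genes), 9 higher and 23 lower in OLs. All genes divided into 28.8% higher and 28.7% lower. Of the 10 tested partners of Drosha 7 were lower and 2 higher. Of the 12 genes of export, dicing and turnover 6 were lower and 3 higher, of the 10 of Argonaute loading 5 and 1, and of the 22 silencing effectors 5 and 3. Neither of the 2 tested PIWI genes was called. Ran, the GTPase that powers export by Xpo5, was at 239 ± 13.8 CPM in OLs and 498 ± 5.82 in OPCs (SD, n = 2 each; log2 −1.07, SE 0.08; edgeR adjusted p = 3.82e-04). Adarb1, an RNA editing enzyme, was higher by 1.03 (SE 0.17; edgeR adjusted p = 0.00516). Among the effectors, Cnot8 was higher by 0.66 (SE 0.07; edgeR adjusted p = 0.00132) and Cnot9 was lower by 0.77 (SE 0.07; edgeR adjusted p = 7.12e-04), both of the CCR4-NOT deadenylase complex. Cnot8 was not called in either repeat on the other libraries, at 0.19 and 0.33.

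In the inhibitor comparison 12 of 56 partners were called, 6 higher and 6 lower, or 21.4% against 28.1% of all genes. Tarbp2, the double-stranded RNA binding partner of Dicer1, was at 40.6 and 46.3 CPM with the inhibitor and 27.9 and 28.6 in the control, without overlap (log2 0.61, SE 0.10; edgeR adjusted p = 0.00563). Dis3l2, an exonuclease of uridylated precursors, was higher by 0.67 (SE 0.09; edgeR adjusted p = 0.00196), and Snd1, a nuclease of the silencing complex, by 0.54 (SE 0.08; edgeR adjusted p = 0.00372). Adar, the editing enzyme that interferon induces, was at 61.2 ± 6.97 CPM with the inhibitor and 139.9 ± 10.99 in the control (SD, n = 2 each; log2 −1.21, SE 0.10; edgeR adjusted p = 2.93e-04). Mov10, an RNA helicase found with Argonautes and also an interferon-induced gene, was at 23.6 ± 0.20 and 42.7 ± 3.43 CPM (log2 −0.87, SE 0.10; edgeR adjusted p = 8.37e-04). Eri1, an exonuclease, was lower by 0.48 (SE 0.09; edgeR adjusted p = 0.00918).

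Interferon-response genes moved with Adar and Mov10. The summed CPM of 10 such genes was 227 and 262 in OPC anti-miR-145, 1755 and 1845 in OPC anti-miR-ctl, and 58.5 to 83.0 in the OL libraries, all 10 detected. Mov10 also differed by −2.23 between control OLs and control OPCs (SE 0.12; edgeR adjusted p = 1.36e-04), a comparison that shares the OPC controls. The part of the interferon response in these differences was not tested.

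In the mimic comparisons no partner was called, and 48 of 55 were lower with miR-145 alone, as were 7973 of all 15461 genes. The 2 of smallest p were Cnot6l, a deadenylase of CCR4-NOT, at 27.1 CPM with the mimic and 37.2 in the control (log2 −0.45, SE 0.14; edgeR adjusted p = 0.277), and Tarbp2, at 45.49 and 46.03 against 65.3 and 55.4 CPM (log2 −0.39, SE 0.13; edgeR adjusted p = 0.299). With both mimics they were Cnot6l, at −0.39, and Cnot7, a deadenylase too, at −0.27 (edgeR adjusted p = 0.800 for each). Between the mimics they were Tut4, a uridylyltransferase, at 0.25, and Adarb1 at −0.32, neither called. These are fits without a block. With the replicate number as a block, Cnot6l and Tarbp2 were called for miR-145 alone.

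Tarbp2 is the partner named in 3 of the 5 comparisons. Its mean was 60.4 ± 7.02 CPM in OL miR-ctl, 45.8 ± 0.38 in OL miR-145, 47.7 ± 7.18 in OL miR-145+miR-219, 43.4 ± 3.97 in OPC anti-miR-145 and 28.3 ± 0.50 in OPC anti-miR-ctl (SD, n = 2 each). Its difference between control OLs and control OPCs was 1.08 (SE 0.11; edgeR adjusted p = 9.48e-04), whereas OL miR-145 exceeded OPC anti-miR-145 by 0.08 and OL miR-145+miR-219 by 0.15, and neither was called.

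**Figure D4:**
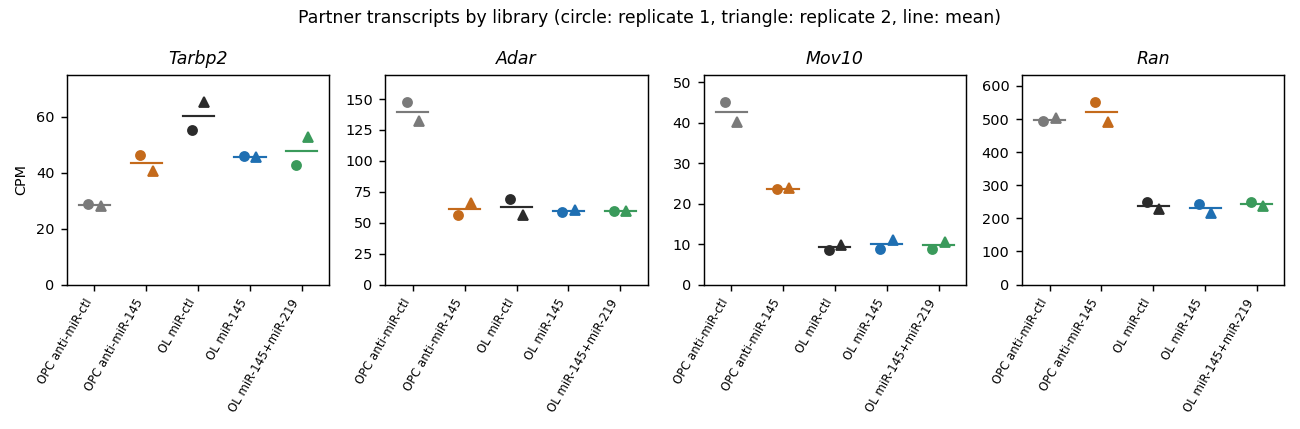
Levels in every library (CPM on linear axes from 0, a panel per gene) of partner genes named in the text, with a point per library and a line at each group mean. Tarbp2 runs from 28.3 CPM in OPC anti-miR-ctl to 60.4 in OL miR-ctl, and Adar and Mov10 are highest in OPC anti-miR-ctl.

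The genes most like Ago2, Dicer1 and Ago3 over the 10 libraries were found among 13335 genes with a mean of at least 1 CPM, by Pearson's r of the log2 CPM, as a description. For Ago2 they were Ylpm1 (r = 0.98), Phactr4 (r = 0.98) and Sox6 (r = 0.97), the last a transcription factor known from OPCs. For Dicer1 they were Ankib1 (r = 0.99), Bod1l1 (r = 0.98) and Rictor (r = 0.98), a subunit of mTORC2. For Ago3, added after its values were seen, they were Odr4, Prtg and Eif5b (r = 0.99 each). The 10 points fall into the 2 stages and share the scaling of their libraries.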

How the data were processed

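The authors sequenced stranded mRNA libraries of primary rat cells, and the deposited table holds estimated counts per gene, made by them with Salmon 0.12.0 and tximport on the rat genome Rnor6.0. Symbols were taken from the authors' table of comparisons, whose fold changes and p-values were not used. The estimated counts were rounded and tested with edgeR 4.0.16 (R 4.3.3; quasi-likelihood test, TMM scaling, at least 5 counts in 2 of the 4 fitted libraries), each comparison on its own 4 libraries, with Benjamini-Hochberg adjustment over all genes tested. Levels are TMM CPM over the 10 libraries. DESeq2 1.42.0, other filters, a fit over all groups, the replicate number as a block and the omission of each library were tried as alternatives. Named are all 10 members and, of the partners, up to 3 called genes of smallest p in each direction, or the 2 of smallest p where none was called. The members and lists were chosen with earlier results of these data known. On simulated counts made from the OL miR-145 and control libraries (15461 genes), edgeR called 2 of 67 genes changed by 0.5 on the log2 scale, 35 of 67 changed by 1 and 52 of 66 changed by 2, with 11 false calls. Total counts of 33505706 to 42684206 per library put 238 counts or more behind each member. The spread between libraries was not set against counting error for single members, and Ago4 had only 242 to 557 counts.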

Additional observations from a re-analysis of the deposited data

How the results depend on the processing

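With 2 libraries a group, the calls moved with the test and with single libraries. For miR-145 against control, DESeq2 called 649 genes, a fit over all 5 groups 32 and the replicate block 2272, and the block also called 2 partners, Cnot6l and Tarbp2 (edgeR adjusted p = 0.0178 and 0.0242). For both mimics against control, DESeq2 called 106 genes, the fit without a filter 1 and the block 132. Between the mimics, DESeq2 called 9 and the block 184. No member was called in any of these. The fit over all groups called 2553 genes for the inhibitor. The replicate numbers were not shown to pair the libraries, since the labels name no shared batch and each comparison holds 2 pairs. Counts of genes called with the block are therefore given only here. The correlation of deviations of same-numbered libraries was 0.20, 0.20 and 0.36 in the OL comparisons and −0.05 and 0.02 in the 2 that include OPCs. Replicate 1 also had the higher astrocyte sum in all 3 OL groups. Replicate 2 had the higher sum of the maturing oligodendrocyte genes in all 3. The values were 24897 against 15505 CPM in OL miR-145, 30988 against 16875 in OL miR-ctl, and 34124 against 19295 in OL miR-145+miR-219. Whether the numbers mark shared cultures was not tested. In the controls of the stages the block lost the call of Dgcr8 (edgeR adjusted p = 0.0692).

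Leaving out each library in turn gave 2348 to 7133 genes, 0 to 5 members and 4 to 27 partners for the inhibitor, and 4780 to 10306 genes, 1 to 8 members and 10 to 38 partners for the stages. The lone library is then assumed to vary like the others. Without OL miR-ctl replicate 1 the stage differences of Ago1 to Ago4 were −0.23, −0.71, 1.47 and −0.66. Without replicate 2 they were 0.30, 0.05, 2.06 and −0.07. OL miR-145+miR-219 against OPC anti-miR-145, added after seeing the data, called 18 partners. Ago1 and Ago3 counts summed, an alternative also added after seeing the data, were not called (0.56, edgeR adjusted p = 0.0514). The sum is a different feature, so it does not test the Ago3 call. No other call of a member was lost with it.

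The log2 differences whose sign turned when a library was left out had not been called with all libraries. Some were called without 1 library. Between the stages these were Ago1, on either side of 0, and Ago2. For the inhibitor they were Ago1, Ago2, Ago3 and, on either side of 0, Tnrc6b. Such a fit leaves 1 library in a group, so its p does not measure the spread of that group. For miR-145 against control the differences whose sign turned ran from −0.43 to 0.11 for Ago1, −0.67 to 0.10 for Ago2, −0.055 to 0.032 for Drosha, −0.17 to 0.026 for Xpo5 and −0.097 to 0.23 for Tnrc6b. For both mimics against control they ran from −0.37 to 0.18 for Ago1, −0.58 to 0.19 for Ago2, −0.34 to 0.26 for Ago3, −0.10 to 0.059 for Dicer1, −0.042 to 0.046 for Drosha, −0.15 to 0.044 for Xpo5, −0.10 to 0.0069 for Tnrc6a and −0.061 to 0.26 for Tnrc6b. For both mimics against miR-145 they ran from −0.034 to 0.13 for Ago1, −0.027 to 0.10 for Ago4, −0.031 to 0.037 for Drosha, −0.042 to 0.058 for Xpo5, −0.017 to 0.026 for Tnrc6a and −0.091 to 0.15 for Tnrc6b. For the inhibitor they ran from −0.10 to 0.25 for Ago1, −0.12 to 0.33 for Ago2, −0.58 to 0.13 for Ago3, −0.036 to 0.048 for Drosha, −0.084 to 0.18 for Tnrc6a and −0.23 to 0.35 for Tnrc6b. For the stages they ran from −0.23 to 0.30 for Ago1, −0.71 to 0.051 for Ago2 and −0.072 to 0.11 for Xpo5. Of the other alternatives, the fit over all groups gave Drosha −0.0049 with both mimics against control, a minimum of 10 counts gave it −0.0073 for the inhibitor, and the repeats on other libraries gave −0.22 and −0.15 for Ago1 and −0.28 and −0.26 for Xpo5 between the stages, against 0.05 and 0.01. The order of the members over the groups was the same with DESeq2 size factors for all 10. Ordering the members by level per length was not run, since no transcript lengths were used here.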
